A study of Homo sapiens with 16 samples.

Results

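HOX genes encode homeodomain transcription factors that set position along the body axis. In mammals they lie in the HOXA, HOXB, HOXC and HOXD clusters, and low paralog numbers mark anterior genes while high numbers mark posterior ones. Polycomb complexes hold silent HOX genes off, trithorax complexes keep active ones on, retinoic acid can induce the anterior end of a cluster, and many HOX proteins bind DNA together with PBX and MEIS proteins. HOXB13 is the HOX gene typical of the prostate, where its protein works beside the androgen receptor.

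The genes were all protein-coding HOXA, HOXB, HOXC and HOXD symbols in a table of RNA-seq counts, 39 of 20356 genes. They comprise 11 HOXA genes on chromosome 7, 10 HOXB genes on chromosome 17, 9 HOXC genes on chromosome 12 and 9 HOXD genes on chromosome 2. RNA came from PC3, an established human prostate cancer line with little androgen receptor activity. Its 4 groups were xenograft tumors of DDX4-null PC3 cells, xenograft tumors of control PC3 cells, DDX4-null monolayer cells and control monolayer cells, with 4 libraries each. DDX4 is a germ cell RNA helicase, and the series asks what it does for the cancer-related behaviour of PC3 cells. The labels do not say how DDX4 was removed, whether the null line is a single clone, what the controls received, the host or the age of the tumors, or whether libraries of a group were separate cultures or animals. An effect of DDX4 and a difference between cell lines therefore cannot be told apart, and p-values measure only the spread between libraries, which may be technical.

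Libraries held 12204254 to 25443952 counts, and no replicates were copies of each other. DDX4 itself had 0 to 5 counts in every library, so its RNA does not check the labels. All 5 epithelial markers fixed for PC3 were detected in every group, and the prostate genes KLK2 and KLK3 had at most 3 counts in any group. Markers of other cell types were counted in the tumors, and whether host reads were removed is not given in the sources used here. A list of 10 fibroblast markers summed to 1679 to 11010 CPM (counts scaled to a library of fixed size) in DDX4-null tumors, 1403 to 1906 CPM in control tumors, 45.2 to 58.2 CPM in DDX4-null cells and 24.1 to 31.7 CPM in control cells. The value of 11010 CPM belongs to DDX4-null tumor library 1, which stood apart from all others, and the part of these markers in the HOX results was not tested. In bulk RNA, fewer cells of a type and less RNA per cell cannot be told apart.

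The 4 posterior HOXA genes with the highest counts are shown by their promoters, because they fell together in DDX4-null cells, as described further on. Each window runs from 250 bases before to 50 bases after the start of the gene, on the minus strand of GRCh38.p14 (RefSeq). Capitals mark CTATAAA, which holds a TATA box motif (TATAAA) and, on the opposite strand and overlapping it, the posterior HOX motif TTTATNG.
HOXA9, chr7:27165488-27165787: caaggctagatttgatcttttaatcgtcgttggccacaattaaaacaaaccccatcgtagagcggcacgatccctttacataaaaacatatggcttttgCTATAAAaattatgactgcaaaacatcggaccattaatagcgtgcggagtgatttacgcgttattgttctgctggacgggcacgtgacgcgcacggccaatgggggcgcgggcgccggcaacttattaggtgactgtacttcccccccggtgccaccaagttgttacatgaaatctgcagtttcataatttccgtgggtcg
HOXA10, chr7:27179812-27180111: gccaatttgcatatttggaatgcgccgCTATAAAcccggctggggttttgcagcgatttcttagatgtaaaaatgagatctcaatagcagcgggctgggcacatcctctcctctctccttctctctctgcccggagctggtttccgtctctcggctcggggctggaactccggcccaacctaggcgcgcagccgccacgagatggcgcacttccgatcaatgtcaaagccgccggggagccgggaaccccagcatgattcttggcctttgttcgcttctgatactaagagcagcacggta
HOXA11, chr7:27185183-27185482: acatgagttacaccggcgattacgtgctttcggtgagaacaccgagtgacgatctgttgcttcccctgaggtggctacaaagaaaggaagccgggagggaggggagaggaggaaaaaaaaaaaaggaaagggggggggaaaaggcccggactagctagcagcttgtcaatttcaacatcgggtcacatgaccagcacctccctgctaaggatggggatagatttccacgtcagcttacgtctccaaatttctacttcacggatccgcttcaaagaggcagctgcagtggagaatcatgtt
HOXA13, chr7:27200042-27200341: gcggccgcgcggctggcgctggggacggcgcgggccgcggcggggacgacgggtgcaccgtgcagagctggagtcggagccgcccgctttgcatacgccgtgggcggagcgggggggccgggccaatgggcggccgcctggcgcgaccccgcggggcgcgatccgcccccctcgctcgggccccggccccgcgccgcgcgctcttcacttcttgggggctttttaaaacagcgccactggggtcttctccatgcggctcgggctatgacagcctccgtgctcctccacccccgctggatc

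The 4 windows were not alike as a set, although HOXA9 and HOXA10 held the same motifs. HOXA13 held 44 CG pairs, HOXA9 22, HOXA10 21 and HOXA11 13, against a median of 22 over 27 HOX promoters and 14 over all 35116 promoters in the table. TATAAA, read on both strands, was in 5 of the 27 HOX promoters and in 11.5% of all promoters, and TTTATNG in 7 of 27 and in 9.73%. The PBX-HOX motif TGATTNAT was in 2 of 27 HOX promoters and in 2.82% of all, and in none of the 4 windows shown. HOXA11 and HOXA13 held no match to the 3 motifs. The table has promoters for 20 of the 39 HOX genes, some with several starts, and for 9 of the 11 HOXA genes. A match is a string of letters anywhere in this window, at whatever distance from the start of the gene, and shows no binding and no working TATA box.

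HOX RNA was a small part of each library and came largely from 2 genes. HOX genes held 0.0730% to 0.0833% of counts in DDX4-null tumors, 0.0663% to 0.0695% in control tumors, 0.0637% to 0.0760% in DDX4-null cells and 0.0317% to 0.0353% in control cells. Per length, as RPKM (CPM divided by exon length in kilobases), HOXB13 led in 3 groups, at 176 ± 14.7 RPKM in DDX4-null tumors, 141 ± 5.45 RPKM in control tumors and 48.7 ± 1.20 RPKM in control cells (SD, n = 4). In DDX4-null cells HOXB9, which patterns the thorax in mice, led at 155 ± 10.5 RPKM, and HOXB13 followed at 52.3 ± 6.23 RPKM.

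Below these leaders the order also differed between groups. HOXB6 was next in DDX4-null tumors at 9.53 ± 0.96 RPKM and in control tumors at 10.4 ± 1.01 RPKM, and HOXA13 followed at 5.89 ± 1.19 RPKM in DDX4-null tumors and 5.16 ± 0.74 RPKM in control tumors. In DDX4-null cells HOXB6 had 9.44 ± 0.89 RPKM, and HOXC13 at 4.56 ± 0.96 RPKM and HOXB5 at 4.25 ± 1.03 RPKM lay within their spread of each other. Control cells had HOXB9 in the place after HOXB13 at 15.3 ± 1.46 RPKM, then HOXA9 at 8.68 ± 0.94 RPKM and HOXA11 at 7.56 ± 0.23 RPKM, so posterior HOXA genes ranked higher there than in DDX4-null cells. HOXB13 made up 78.0% ± 2.22 of summed HOX RPKM in DDX4-null tumors, 73.5% ± 1.30 in control tumors, 20.2% ± 1.20 in DDX4-null cells and 43.5% ± 0.79 in control cells. The share of HOXB9 was 0.85% ± 0.41 in DDX4-null tumors, 1.01% ± 0.12 in control tumors, 59.9% ± 1.38 in DDX4-null cells and 13.6% ± 1.03 in control cells.

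The cluster sums differed in direction between clusters. HOXA genes summed to 68.6 ± 8.07 CPM in DDX4-null tumors, 65.4 ± 5.07 CPM in control tumors, 30.2 ± 1.26 CPM in DDX4-null cells and 103 ± 2.10 CPM in control cells. HOXB genes summed to 678 ± 52.4 CPM in DDX4-null tumors, 557 ± 15.0 CPM in control tumors, 654 ± 51.4 CPM in DDX4-null cells and 229 ± 8.49 CPM in control cells. The HOXA sum was thus lowest in DDX4-null cells and the HOXB sum lowest in control cells. HOXC genes summed to 19.8 ± 4.56 CPM in DDX4-null tumors, 20.02 ± 1.86 CPM in control tumors, 33.8 ± 3.59 CPM in DDX4-null cells and 16.9 ± 1.45 CPM in control cells. HOXD sums stayed between 1.86 and 6.01 CPM in all libraries. Without HOXB9 and HOXB13 the other HOXB genes summed to 61.3 ± 6.33 CPM in DDX4-null tumors, 64.7 ± 4.51 CPM in control tumors, 73.2 ± 6.41 CPM in DDX4-null cells and 20.7 ± 2.13 CPM in control cells, and control cells were again lowest.

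**Figure D1:**
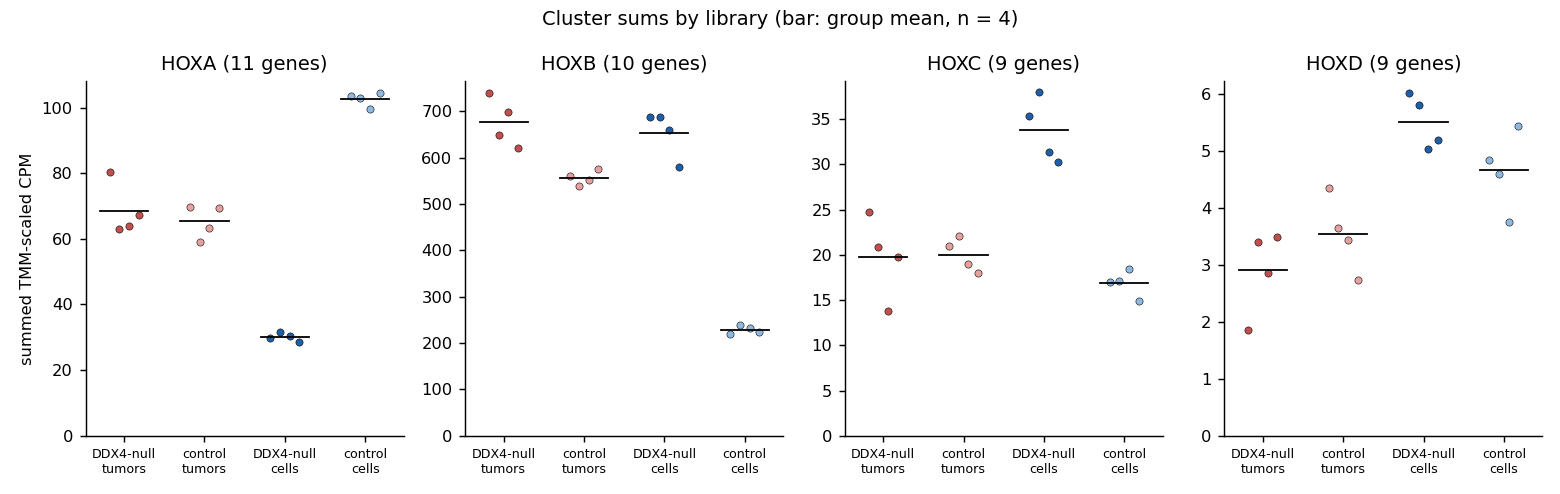
Summed CPM, scaled by trimmed mean of M values (TMM), of the genes of each HOX cluster, in each of 16 libraries (points) with the group mean (bar, n = 4), from DDX4-null tumors at the left to control cells at the right of each panel. Control cells are highest in HOXA, at 103 CPM on average, and lowest in HOXB, at 229 CPM, and each vertical axis starts at 0 with its own scale.

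The HOXB cluster was higher and the HOXA cluster lower in DDX4-null cells than in control cells. Of 28 HOX genes with enough counts to be tested in monolayers, 13 were called higher and 10 lower (edgeR quasi-likelihood test, Benjamini-Hochberg adjusted p under 0.05). Most genes differed between these groups, since 67.3% of all genes tested were called, 35.0% higher and 32.3% lower. By cluster, 10 of 11 HOXA genes were called lower and none higher, 8 of 9 HOXB genes and 4 of 5 HOXC genes were called higher and none lower, and 1 of 3 HOXD genes was called higher. The median log2 change was -1.86 over the HOXA genes, 1.98 over the HOXB genes and 0.67 over the HOXC genes tested, beside 0.02 over all genes. The groups did not overlap for 13 HOX genes that were higher and 9 that were lower, where 59.4% of all genes did not overlap in either direction.

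HOXB9 had the most HOX RNA in DDX4-null cells. It had 419, 407, 412 and 359 CPM in the DDX4-null libraries, against 38.7, 43.9, 40.7 and 34.9 CPM in the control libraries. Every null library was far above every control library, with a log2 change of 3.34 ± 0.11 (SE, edgeR adjusted p = 2.53e-15). HOXB8, which acts in blood cells and the spinal cord in mice, had 8.11, 7.57, 6.07 and 7.18 CPM in DDX4-null libraries, against 0.464, 0.359, 0.221 and 0.517 CPM in control libraries. The log2 change of HOXB8 was 4.21 ± 0.23 (edgeR adjusted p = 6.66e-12), the largest of the HOX genes tested here. HOXB7 averaged 4.40 ± 0.26 CPM in DDX4-null cells and 0.505 ± 0.161 CPM in control cells (SD, n = 4 each), a log2 change of 3.09 ± 0.23. The neighbouring genes HOXB7, HOXB8 and HOXB9 thus had the 3 largest changes of the cluster.

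The anterior HOXB genes rose by less. HOXB3, a hindbrain gene, had 23.8, 23.1, 24.2 and 19.5 CPM in DDX4-null libraries, against 5.57, 6.17, 5.58 and 5.63 CPM in control libraries, and its log2 change was 1.98 ± 0.12 (edgeR adjusted p = 4.38e-11). HOXB6 had 25.1, 24.2, 27.4 and 21.7 CPM in DDX4-null libraries, against 7.22, 10.7, 9.94 and 8.15 CPM in control libraries, and a log2 change of 1.45 ± 0.13. HOXB5 had 10.04, 10.3, 8.68 and 5.70 CPM in DDX4-null libraries, against 4.11, 4.88, 2.87 and 3.17 CPM in control libraries. Its groups came close, at 5.70 CPM in the lowest null library and 4.88 CPM in the highest control library, and its log2 change was 1.21 ± 0.20. HOXB2, another hindbrain gene, averaged 4.09 ± 0.54 CPM in DDX4-null cells and 0.805 ± 0.179 CPM in control cells. HOXB4, used to expand blood stem cells, averaged 1.51 ± 0.38 CPM in DDX4-null cells and 0.509 ± 0.141 CPM in control cells, and both were called higher.

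HOXB13 stood apart from its cluster. The prostate gene had 192, 205, 172 and 156 CPM in DDX4-null libraries, against 163, 172, 172 and 169 CPM in control libraries. The groups overlapped, and the log2 change of 0.10 ± 0.10 was not called (edgeR adjusted p = 0.371). After centring on the neighbouring genes, an alternative described below, it was -0.48.

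The HOXA genes moved together in the opposite direction. HOXA9, known for its role in acute leukemia, had 5.64, 7.21, 6.98 and 6.95 CPM in DDX4-null libraries, against 25.2, 24.9, 24.5 and 30.5 CPM in control libraries. No null library reached a control library, and the log2 change was -1.97 ± 0.13 (SE, edgeR adjusted p = 5.75e-11). HOXA10, which patterns the uterus, had 3.60, 5.56, 2.79 and 3.48 CPM in DDX4-null libraries, against 17.95, 14.6, 15.7 and 18.7 CPM in control libraries, and a log2 change of -2.12 ± 0.17. HOXA11, a gene of the forearm and the uterus, had 6.87, 7.33, 6.49 and 6.54 CPM in DDX4-null libraries, against 17.1, 17.2, 18.2 and 17.3 CPM in control libraries, and its log2 change of -1.36 ± 0.12 was the smallest of the posterior HOXA genes. HOXA13, a gene of the hand, foot and urogenital tract, had 7.46, 6.74, 8.68 and 6.67 CPM in DDX4-null libraries, against 27.0, 30.6, 26.2 and 23.5 CPM in control libraries, and a log2 change of -1.86 ± 0.13. In all 4 posterior genes the groups were apart by more than the range of either group.

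Anterior HOXA genes were lower as well. HOXA3, which acts in the pharyngeal arches, had 2.58, 2.31, 2.43 and 2.04 CPM in DDX4-null libraries, against 5.63, 7.39, 7.07 and 6.14 CPM in control libraries, and a log2 change of -1.49 ± 0.16 (SE, edgeR adjusted p = 1.22e-07). HOXA5 averaged 0.730 ± 0.328 CPM in DDX4-null cells and 2.95 ± 0.95 CPM in control cells, and HOXA6 averaged 0.299 ± 0.123 CPM in DDX4-null cells and 1.35 ± 0.33 CPM in control cells. Both genes and HOXA7, which stayed under 1 CPM in all groups, were called lower. HOXA2 was called at -1.02 ± 0.32, although its libraries overlapped. HOXA4, at 0.988 ± 0.245 CPM in DDX4-null cells and 1.43 ± 0.12 CPM in control cells, was not called (edgeR adjusted p = 0.0567), but it was without DDX4-null cell library 3 and with a filter of 1 CPM.

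HOXC10 and HOXC13 had larger log2 changes than HOXC6, HOXC8 and HOXC9, the other HOXC genes tested. HOXC10 had 5.53, 5.85, 4.85 and 4.68 CPM in DDX4-null libraries, against 1.26, 0.646, 0.939 and 1.36 CPM in control libraries, a log2 change of 2.30 ± 0.21 (SE, edgeR adjusted p = 9.05e-09). HOXC13, a regulator of hair and nail keratins, had 14.1, 11.2, 8.43 and 10.5 CPM in DDX4-null libraries, against 4.37, 4.59, 5.80 and 4.33 CPM in control libraries, a log2 change of 1.20 ± 0.16. Both pairs of groups were apart. HOXC6, whose RNA is measured in urine tests for prostate cancer, had 6.82, 10.1, 8.49 and 7.05 CPM in DDX4-null libraries, against 5.57, 5.02, 4.36 and 5.50 CPM in control libraries, with a log2 change of 0.67 ± 0.16. HOXC8, a thoracic gene, had 6.71, 7.21, 6.92 and 6.17 CPM in DDX4-null libraries, against 3.71, 5.38, 5.86 and 2.52 CPM in control libraries, with a log2 change of 0.62 ± 0.20. For HOXC8 the groups were apart by little, 6.17 CPM being the lowest null value and 5.86 CPM the highest control value. HOXC9 averaged 1.78 ± 0.54 CPM in DDX4-null cells and 1.27 ± 0.40 CPM in control cells and was not called, except without DDX4-null cell library 4. The exons of HOXC6 overlap those of HOXC4, HOXC5 and HOXC9 on the same strand, so their reads cannot be fully separated.

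HOXD genes were the least expressed cluster. HOXD3 averaged 2.16 ± 0.33 CPM in DDX4-null cells and 2.77 ± 0.88 CPM in control cells, HOXD8 averaged 1.75 ± 0.46 CPM in DDX4-null cells and 1.31 ± 0.29 CPM in control cells, and neither was called in the comparison as described. HOXD3 was called lower without control cell library 3. HOXD13, a digit gene, was called higher at a log2 change of 2.95 ± 0.51, from 20, 12, 13 and 13 counts in DDX4-null libraries, against 2, 1, 0 and 3 counts in control libraries.

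The 13 genes below 1 CPM in every group were HOXA7, HOXB1, HOXC4, HOXC5, HOXC11, HOXC12 and all HOXD genes but HOXD3 and HOXD8. HOXB1, a hindbrain gene, had 3 counts over the DDX4-null cells and 0 in every other group. HOXC12 and HOXD11 had at most 1 count over all 16 libraries. HOXD9 had 0, 3, 4 and 6 counts in DDX4-null tumors and 6, 6, 5 and 5 counts in control tumors, and HOXD10 had 0, 2, 4 and 6 counts in DDX4-null tumors and 0, 1, 6 and 4 counts in control tumors. Neither gene had a count in any of the monolayer libraries, where the floor of 3 counts was 0.138 to 0.209 CPM, and both were singled out after their values were seen. In the tumor library with the highest fibroblast markers, DDX4-null tumor library 1, both had 0 counts. That library was also the smallest, at 12204254 counts with a floor of 0.246 CPM, so its values of 0 say little.

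**Figure D2:**
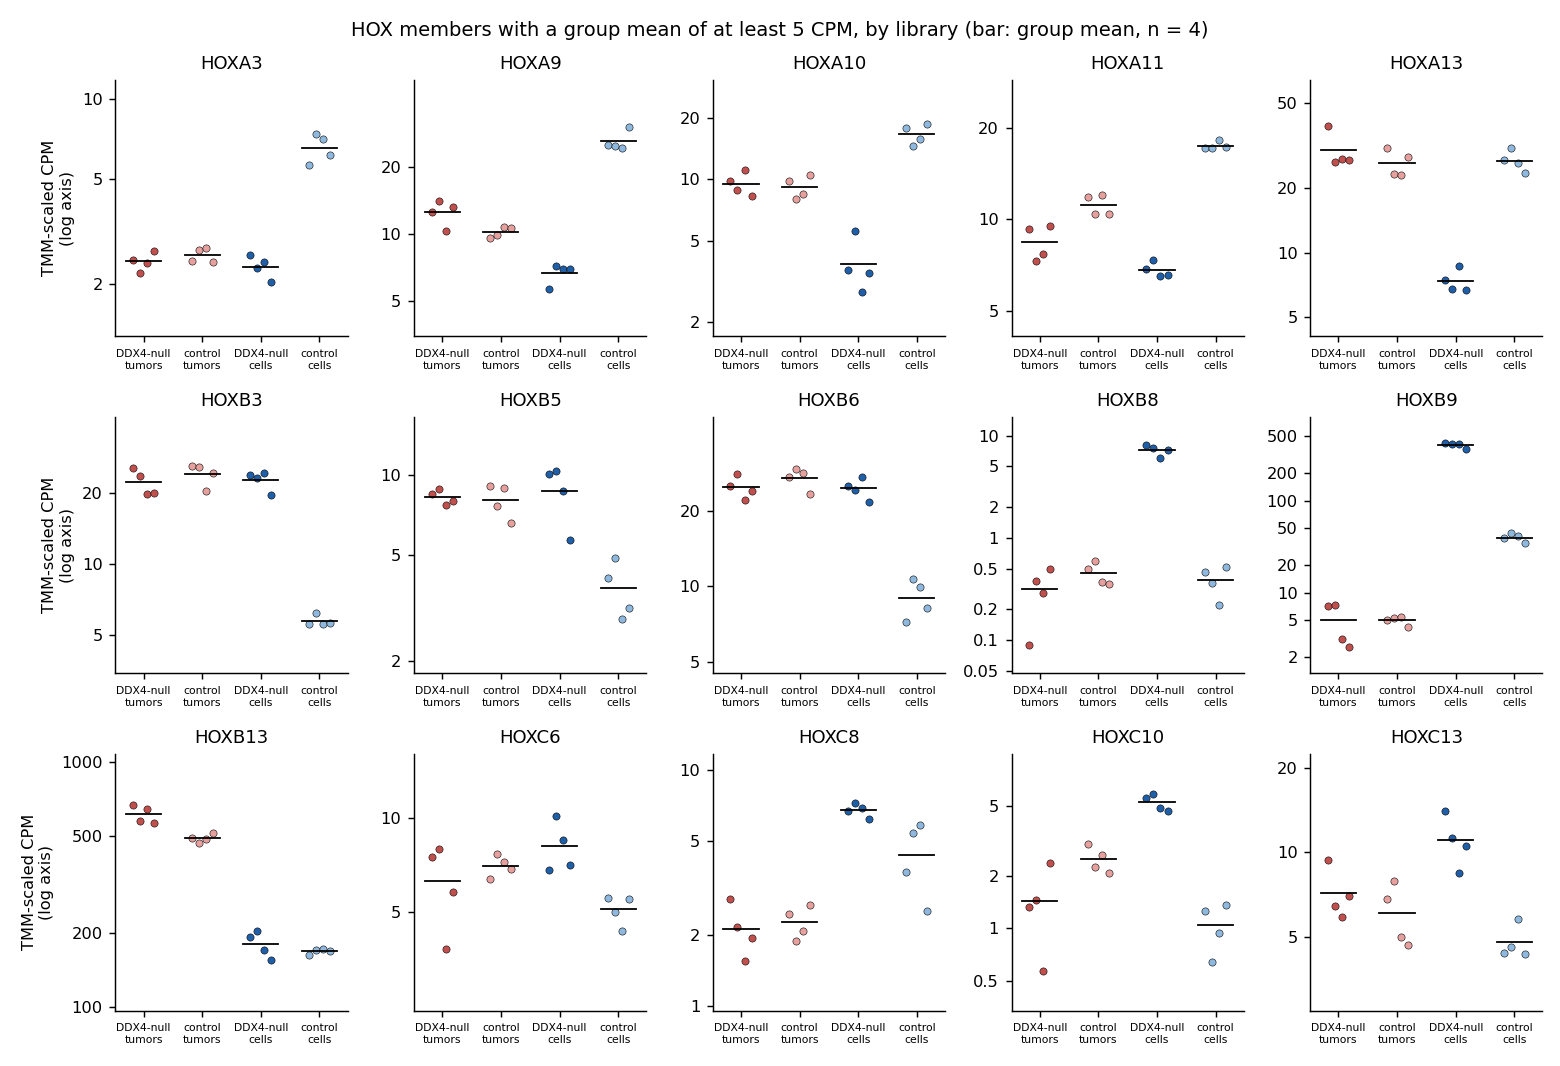
TMM-scaled CPM on a log axis of the 15 HOX genes with a group mean of at least 5 CPM, in each of 16 libraries (points) with the group mean (bar, n = 4), from DDX4-null tumors at the left to control cells at the right of each panel. HOXB9 averages 5.005 CPM in DDX4-null tumors, 4.97 CPM in control tumors, 399 CPM in DDX4-null cells and 39.5 CPM in control cells, while the HOXA genes shown are highest in control cells or, for HOXA13, lowest in DDX4-null cells.

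The HOXA and HOXB changes lay on chromosomes whose medians moved in the same direction, while the median of chromosome 12, which holds HOXC, moved slightly the other way. The median log2 change between DDX4-null and control cells was -0.73 over 594 genes of chromosome 7, 0.24 over 730 genes of chromosome 17, -0.11 over 687 genes of chromosome 12 and 0.20 over 879 genes of chromosome 2. Among the 51 tested genes around each HOX gene, with HOX genes left out, the median ran from -0.76 to -0.55 in the HOXA cluster and from 0.58 to 0.71 in the HOXB cluster. After centring on the chromosome, HOXB9 changed by 3.09 and HOXA9 by -1.25 on the log2 scale, and after centring on the neighbours HOXB9 changed by 2.75 and HOXA9 by -1.26. Centring on the neighbours took HOXA3 from -1.49 to -0.89 and HOXA11 from -1.36 to -0.65. It took HOXB5 from 1.21 to 0.51 and HOXB6 from 1.45 to 0.81, and these genes stayed called. HOXA2 was the HOX gene whose call was lost under both ways of centring (edgeR adjusted p = 0.429 by chromosome and 0.269 by neighbours). HOXA4 had a change of 0.11 after neighbour centring, and HOXB13 was called lower at -0.48 (edgeR adjusted p = 0.000246). HOXD3 was called lower in both centred fits, at -0.53 by chromosome and -0.55 by neighbours.

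In the tumors no HOX gene was called between DDX4-null and control. None of the 24 HOX genes tested passed with edgeR, where 2.09% of all genes did, 0.981% higher and 1.1% lower. At an unadjusted p under 0.05 there were 6, and DESeq2, another count test, called 1 of 36 and also had 6 unadjusted. Of all 17368 genes DESeq2 called 483 higher and 403 lower. The share of all genes at the unadjusted threshold was not computed, so the unadjusted counts have no background beside them. The CPM of the groups did not overlap for 2 HOX genes that were higher, HOXB13 and HOXC9, and 2 that were lower, HOXA6 and HOXA11, where 12.6% of all genes did not overlap. The median log2 change was 0.05 over the HOXA genes, 0.01 over the HOXB genes, -0.12 over the HOXC genes and 0.00 over all genes. It was 0.01 over chromosome 7 and -0.01 over chromosome 17 in tumors, beside -0.73 and 0.24 in cells. What lies behind this difference in the chromosome medians was not tested.

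HOXB13 had the most HOX RNA in both kinds of tumor. It had 667, 575, 642 and 562 CPM in DDX4-null tumors, against 488, 466, 484 and 512 CPM in control tumors. Each null tumor was above each control tumor, and the log2 change was 0.32 ± 0.09 (SE, edgeR adjusted p = 0.0877). HOXB13 was the gene called by DESeq2 (adjusted p = 0.00419) and was also called higher in the edgeR model of all 16 libraries. Over all settings tried its change lay between 0.26 and 0.37, and without DDX4-null tumor library 1 it was 0.29. HOXA6 averaged 0.394 ± 0.126 CPM in DDX4-null tumors and 0.950 ± 0.253 CPM in control tumors, a log2 change of -1.27 ± 0.35 (edgeR adjusted p = 0.0877), and was called lower in the 16-library model. HOXA11 had 9.28, 7.30, 7.67 and 9.47 CPM in DDX4-null tumors, against 11.8, 10.4, 12.05 and 10.4 CPM in control tumors. Its log2 change of -0.41 ± 0.14 was called only in the 16-library model. HOXC9 averaged 2.32 ± 0.37 CPM in DDX4-null tumors and 1.53 ± 0.23 CPM in control tumors and was called in none of the settings.

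HOXB3, HOXB5, HOXB6, HOXB8 and HOXB9, all called higher in DDX4-null monolayers, overlapped between the tumor groups. HOXB9 had 7.07, 7.24, 3.15 and 2.55 CPM in DDX4-null tumors, against 4.98, 5.29, 5.37 and 4.26 CPM in control tumors. The null tumors lay on both sides of the controls, and the log2 change was 0.00 ± 0.31 (SE, edgeR adjusted p = 0.995). HOXB8 had 0.0884, 0.378, 0.286 and 0.498 CPM in DDX4-null tumors, against 0.491, 0.588, 0.365 and 0.355 CPM in control tumors, and was too low to be tested. HOXB3 had 25.4, 23.5, 19.7 and 19.9 CPM in DDX4-null tumors, against 25.9, 25.6, 20.4 and 24.1 CPM in control tumors. HOXB6 had 25.2, 28, 22.04 and 23.98 CPM in DDX4-null tumors, against 27.3, 29.4, 28.2 and 23.4 CPM in control tumors. HOXB5 had 8.49, 8.81, 7.67 and 7.97 CPM in DDX4-null tumors, against 9.04, 7.65, 8.91 and 6.59 CPM in control tumors.

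The other HOXA genes overlapped between the tumor groups too. HOXA9 had 12.6, 14.1, 10.4 and 13.3 CPM in DDX4-null tumors, against 9.60, 9.88, 10.8 and 10.6 CPM in control tumors, and 1 null tumor lay among the controls. HOXA10 had 9.82, 8.87, 11.1 and 8.28 CPM in DDX4-null tumors, against 9.81, 8, 8.43 and 10.5 CPM in control tumors. HOXA13 had 39.0, 26.4, 27.4 and 27.0 CPM in DDX4-null tumors, against 30.7, 23.4, 23.0 and 28.0 CPM in control tumors. The value of 39.0 CPM was in DDX4-null tumor library 1, the library with the highest fibroblast markers, and the other null tumors lay within the control range. HOXA3 had 2.48, 2.22, 2.40 and 2.68 CPM in DDX4-null tumors, against 2.45, 2.71, 2.74 and 2.43 CPM in control tumors.

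Among the HOXC genes, HOXC10 had 1.33, 1.46, 0.573 and 2.37 CPM in DDX4-null tumors, against 3.01, 2.24, 2.63 and 2.08 CPM in control tumors. It was lower in 3 of 4 null tumors than in any control tumor and was not called (log2 change -0.80 ± 0.34, SE, edgeR adjusted p = 0.215). HOXC13 had 9.37, 6.43, 5.90 and 6.98 CPM in DDX4-null tumors, against 6.80, 7.88, 5.001 and 4.66 CPM in control tumors. HOXC6 had 7.52, 7.95, 3.84 and 5.79 CPM in DDX4-null tumors, against 6.38, 7.65, 7.23 and 6.84 CPM in control tumors. The null tumors spread more widely than the controls for HOXC6. HOXC8 had 2.83, 2.16, 1.55 and 1.93 CPM in DDX4-null tumors, against 2.45, 1.88, 2.08 and 2.69 CPM in control tumors, and these groups overlapped.

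**Figure D3:**
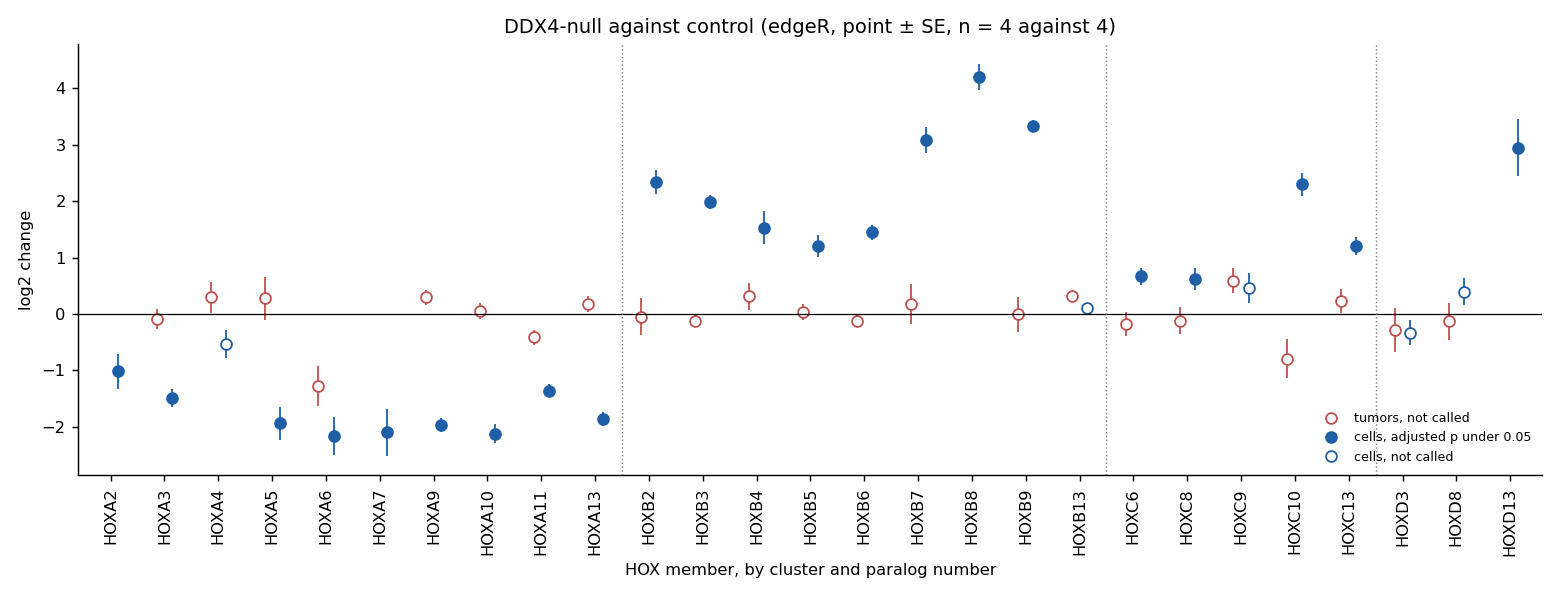
Log2 change with its standard error (edgeR, 4 libraries against 4) of DDX4-null against control for the HOX genes reported here by name that were tested, in tumors (red) and in cells (blue), by cluster and paralog number. Filled points have an adjusted p under 0.05, dotted lines part the clusters, and the blue points lie at or below -0.53 in HOXA and between 0.10 and 4.21 in HOXB, while no red point is filled.

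The DDX4-null difference in tumors was set against that in cells within a model of all 16 libraries. Of 26 HOX genes tested, 7 had a higher and 11 a lower difference in tumors than in cells, where 52.8% of all genes were called, 26.0% higher and 26.8% lower. All 7 that were higher were HOXA genes, and those that were lower were 8 HOXB and 3 HOXC genes. HOXA9 differed by 2.27 ± 0.17 on the log2 scale (SE, edgeR adjusted p = 2.04e-09), HOXA10 by 2.17 ± 0.24 and HOXA13 by 2.05 ± 0.20. HOXB8 differed by -4.61 ± 0.49, HOXB9 by -3.35 ± 0.29 and HOXC10 by -3.10 ± 0.41. HOXB13 differed by 0.23 ± 0.13 (edgeR adjusted p = 0.150) and was called only without DDX4-null cell library 2 and in both centred fits, at 0.50 by chromosome and 0.82 by neighbours. On chromosome 7 the median difference was 0.72 over all genes tested and on chromosome 17 it was -0.25. After centring on the chromosome HOXA9 differed by 1.58 and was called, while HOXA11 was not called in either centred fit, and HOXB4 and HOXB5 were not called after neighbour centring.

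Control tumors were compared with control cells to see how growth as a xenograft goes with HOX RNA. Of 24 HOX genes tested, 8 were called higher and 9 lower, where 64.9% of all genes were called, 33.9% higher and 31.0% lower. Among HOXB genes 6 were higher and 1 lower, and 6 HOXA genes were lower and none higher. The groups did not overlap for 8 HOX genes that were higher and 5 that were lower, where 58.2% of all genes did not overlap. HOXB13 averaged 488 ± 18.9 CPM in control tumors and 169 ± 4.15 CPM in control cells (SD, n = 4 each), a log2 change of 1.54 ± 0.08 (SE, edgeR adjusted p = 5.17e-11). HOXB9 went the other way, at 4.97 ± 0.51 CPM in control tumors and 39.5 ± 3.77 CPM in control cells, a log2 change of -2.98 ± 0.12. HOXB3 changed by 2.07 ± 0.12, HOXB6 by 1.59 ± 0.13 and HOXB4 by 2.39 ± 0.31. HOXB2, HOXB5 and HOXC10 were also called higher, at 1.23 ± 0.25, 1.11 ± 0.18 and 1.23 ± 0.25, and HOXC6 at 0.47 ± 0.14.

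Of 10 HOXA genes tested, 6 were called lower in control tumors than in control cells and 4 were not called. Of all genes tested 64.9% were called, 31.0% of them all lower. Those not called included HOXA13, HOXA4, at a log2 change of 0.05 ± 0.25, and HOXA6, at -0.48 ± 0.27. HOXA9 averaged 10.2 ± 0.58 CPM in control tumors and 26.3 ± 2.85 CPM in control cells, a log2 change of -1.35 ± 0.11 (SE, edgeR adjusted p = 1.41e-08). HOXA3 changed by -1.33 ± 0.16, HOXA10 by -0.86 ± 0.13 and HOXA11 by -0.64 ± 0.11. HOXA13, at 26.3 ± 3.74 CPM in control tumors and 26.9 ± 2.93 CPM in control cells, had a log2 change of -0.03 ± 0.12 (edgeR adjusted p = 0.835). The medians were -0.17 over chromosome 7 and 0.20 over chromosome 17, and -0.49 to -0.45 among the neighbours of the HOXA genes. After neighbour centring HOXA2, HOXA5 and HOXA11 were no longer called, and HOXA13 was called higher at 0.46. HOXD3 was called lower at -0.70 ± 0.27 but not without control cell library 1 or 4 or control tumor library 2 or 4, and not with library totals, the replicate block or the model of all 16 libraries.

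DDX4-null tumors had more HOXA RNA and less of some HOXB genes than DDX4-null cells. Of 24 HOX genes tested, 7 were called higher and 9 lower, where 69.8% of all genes were called, 34.6% higher and 35.3% lower. The groups did not overlap for 6 HOX genes that were higher and 9 that were lower, where 63.4% of all genes did not overlap. HOXA13 averaged 29.9 ± 6.05 CPM in DDX4-null tumors and 7.39 ± 0.93 CPM in DDX4-null cells, a log2 change of 2.03 ± 0.15 (SE, edgeR adjusted p = 8.78e-08), which was 1.89 without DDX4-null tumor library 1. HOXA10 changed by 1.32 ± 0.21 and HOXA9 by 0.93 ± 0.15, and 5 of 7 HOXA genes tested were higher in the tumors. HOXA4 and HOXA5 were among these and lost their calls after centring on the chromosome, where chromosome 7 had a median of 0.55. HOXB9 averaged 5.005 ± 2.50 CPM in DDX4-null tumors and 399 ± 27.1 CPM in DDX4-null cells, a log2 change of -6.32 ± 0.28 (edgeR adjusted p = 7.04e-10), and it stayed between -6.60 and -5.87 in all settings tried. HOXB8 changed by -4.41 ± 0.30, HOXB7 by -2.74 ± 0.28 and HOXB2 by -1.15 ± 0.30.

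HOXB13 was higher in DDX4-null tumors than in DDX4-null cells as well, at 611 ± 51.1 CPM in DDX4-null tumors and 181 ± 21.6 CPM in DDX4-null cells, a log2 change of 1.77 ± 0.11 (SE, edgeR adjusted p = 2.01e-08). HOXB3, HOXB5 and HOXB6 had log2 changes of -0.02 ± 0.12, -0.06 ± 0.18 and 0.03 ± 0.12 and were not called, and after neighbour centring HOXB3 was called higher at 0.41 and HOXB6 at 0.50. HOXC8 changed by -1.68 ± 0.20, HOXC10 by -1.85 ± 0.31 and HOXC13 by -0.62 ± 0.19. HOXD8 and HOXD13 were called lower, at -1.07 ± 0.31 and -2.27 ± 0.47. Of the fibroblast markers, 8 of 9 tested were called higher in DDX4-null tumors than in DDX4-null cells, beside 34.6% of all genes. In control tumors 9 of 9 were called higher than in control cells, beside 33.9% of all genes. The part of these markers in the HOX differences was not tested.

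**Figure D4:**
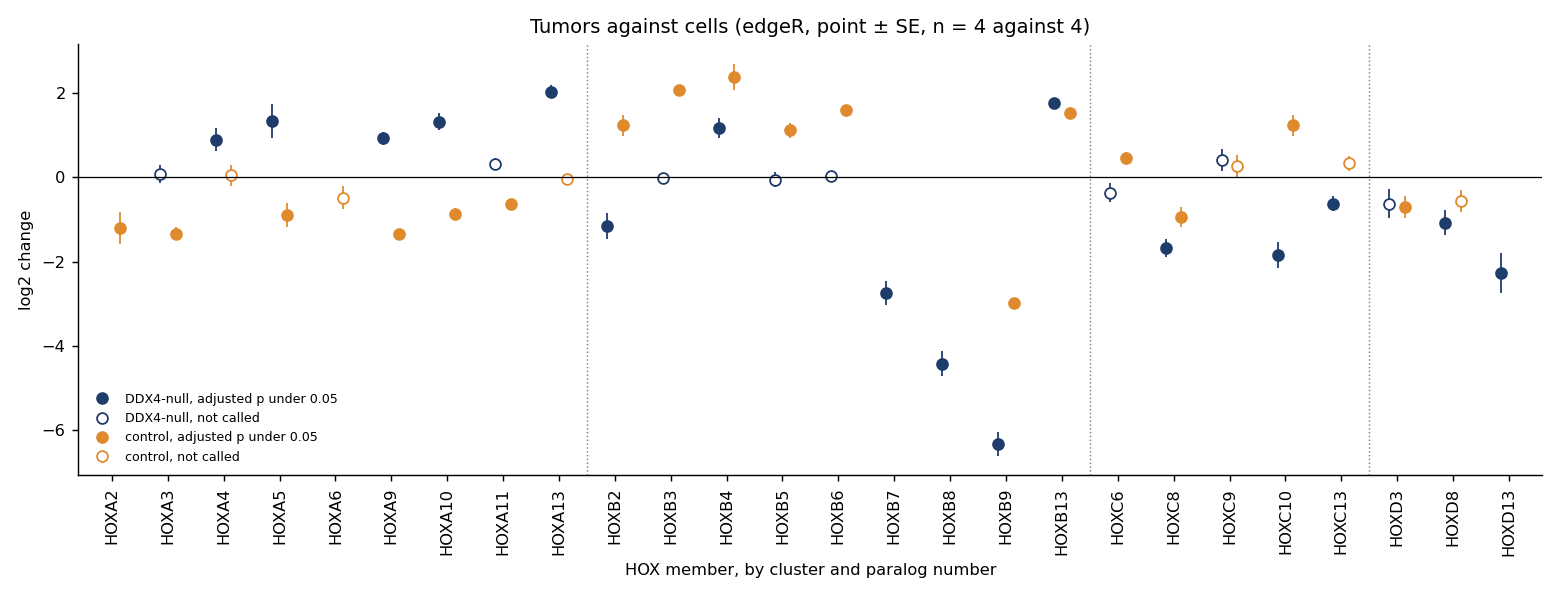
Log2 change with its standard error (edgeR, 4 libraries against 4) of tumors against cells for the HOX genes reported here by name that were tested, in DDX4-null (dark blue) and in control (orange) material, by cluster and paralog number. Filled points have an adjusted p under 0.05, HOXB9 is the lowest point of either color at -6.32 and -2.98, and HOXB13 is above 0 in both at 1.77 and 1.54.

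Paralogs of the same number often differed in direction in DDX4-null cells against control cells, though not in group 8. This repeats the split between clusters and is no separate result. Every HOXA gene tested was below 0 and every HOXB and HOXC gene tested was above 0, and group 8 has no HOXA gene. In paralog group 13, HOXA13 changed by -1.86, HOXB13 by 0.10, HOXC13 by 1.20 and HOXD13 by 2.95 on the log2 scale. In group 9, HOXA9 changed by -1.97, HOXB9 by 3.34 and HOXC9 by 0.46, and HOXD9 was listed at 0 in all 8 libraries. In group 3, HOXA3 changed by -1.49, HOXB3 by 1.98 and HOXD3 by -0.33. In group 10, HOXA10 changed by -2.12 and HOXC10 by 2.30, while in group 8 HOXB8, at 4.21, HOXC8, at 0.62, and HOXD8, at 0.40 and not called, were all above 0. Members that do not overlap share stretches of at most 62 identical exon bases, the longest between HOXB3 and HOXD3, and HOXB9 and HOXD9 share 40. The exons of HOXB9 and HOXB13 overlap no other gene. Those of HOXA9, HOXA10, HOXA11 and HOXB6 overlap genes on the opposite strand over 13.9% to 31.1% of their length. The strand setting of the counting is not given in the sources used here. Other exons overlap on the same strand, where no strand setting separates the reads. The overlap covers 15.9% of HOXA9, 9.93% of HOXA10, 7.94% of HOXB3, 17.1% of HOXB4, 16.6% of HOXB6 and 62.2% of HOXD3, and parts of some other HOX genes.

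Partner and regulator genes were read from lists chosen with earlier results of these data known. Of 8 TALE cofactors tested, the PBX, MEIS and PKNOX proteins that bind beside HOX proteins, 5 were called higher and 1 lower in DDX4-null cells than in control cells, where 35.0% of all genes were called higher and 32.3% lower. MEIS3 averaged 10.7 ± 1.45 CPM in DDX4-null cells and 2.15 ± 0.39 CPM in control cells, and MEIS2 averaged 31.7 ± 1.98 CPM in DDX4-null cells and 17.0 ± 1.63 CPM in control cells. The median log2 change of the tested cofactors was 0.64, beside 0.02 over all genes. In tumors none of 7 was called, beside 2.09% of all genes.

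Of 10 genes beside the clusters, 4 were called higher and 3 lower in DDX4-null cells than in control cells, a share near the 67.3% of all genes, and none was called in tumors, where 2.09% of all genes were. SKAP1, which neighbours HOXB, averaged 8.97 ± 1.59 CPM in DDX4-null cells and 0.179 ± 0.103 CPM in control cells, a log2 change of 5.61 ± 0.28 (SE, edgeR adjusted p = 1.37e-12). PRAC1, a prostate and colon gene next to HOXB13, averaged 89.6 ± 4.02 CPM in DDX4-null cells and 43.2 ± 6.42 CPM in control cells. SKAP2, which neighbours HOXA, averaged 21.8 ± 2.85 CPM in DDX4-null cells and 50.1 ± 4.92 CPM in control cells.

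Among the Polycomb genes, 7 of 20 were called higher and 7 lower in DDX4-null cells than in control cells, with a median log2 change of 0.03, shares close to the 35.0% and 32.3% of all genes. EED, a core subunit of the complex that methylates histone H3 at lysine 27, averaged 0.515 ± 0.131 CPM in DDX4-null cells and 17.9 ± 0.62 CPM in control cells, a log2 change of -5.09 ± 0.18 (SE, edgeR adjusted p = 8.47e-15). In tumors EED averaged 20.6 ± 5.19 CPM in DDX4-null tumors and 18.02 ± 1.00 CPM in control tumors. The other named members were PHC1, which changed by 1.07 ± 0.13, and PHF1, which changed by -0.87 ± 0.11, in cells. The relation of these genes to the HOX values was not tested. Of 12 trithorax and other activator genes tested, 4 were called higher and 7 lower in cells, beside 67.3% of all genes called in either direction. PSIP1 changed by 0.78 ± 0.11, the histone demethylase KDM6A by -0.88 ± 0.10 and the methyltransferase KMT2C by -0.84 ± 0.12. In tumors the demethylase KDM6B, at 0.36 ± 0.08 (edgeR adjusted p = 0.0403), was the single call on the regulator lists, where 2.09% of all genes were called.

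Of 5 retinoid receptors tested, which carry the retinoic acid signal to HOX genes, 3 were called higher and 1 lower in DDX4-null cells than in control cells, beside 67.3% of all genes. RARB averaged 19.7 ± 1.41 CPM in DDX4-null cells and was listed at 0 in all control cell libraries, whose floor was 0.159 to 0.209 CPM. RARA changed by 0.78 ± 0.12 and RARG by 0.52 ± 0.11. In the tumors RARB averaged 0.567 ± 0.453 CPM in DDX4-null tumors and 0.270 ± 0.091 CPM in control tumors, and none of 4 receptors tested was called, beside 2.09% of all genes. Noncoding RNAs of the HOX loci were not analysed here.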

How the data were processed

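RNA was sequenced in 16 libraries of PC3 cells and xenograft tumors. The authors deposited raw read counts per Ensembl gene, and these were used without change. A stranded mRNA kit and DNase-treated RNA are named in the labels' protocols. The submitters' processing notes list Trimmomatic 0.39, featureCounts 2.0.3, STAR 2.7.10a and the build GRCh37. Strand setting, annotation and treatment of host reads were not stated there. A gene name table gave symbols for 19446 IDs and GENCODE v29 gave 65 more, and 845 IDs without a symbol, with 0.211% to 0.310% of counts, stayed in the tests. Chromosome, gene order, exon overlap and length came from GENCODE v29 by Ensembl ID.

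Under R 4.3.3, genes were tested by quasi-likelihood with edgeR 4.0.16 (TMM scaling, filterByExpr filter, Benjamini-Hochberg adjustment over all genes tested, called at 0.05) in the 8 libraries compared, and in a 4-group model of all 16 libraries for the difference between settings. Log2 changes carry a standard error, levels are TMM-scaled CPM with SD, and RPKM divide these by the union of exons. A count of 0 allows up to 3 counts, 0.118 to 0.246 CPM per library, and floors cover counting error only. The fit was tested on simulated counts. The members and lists were chosen with earlier results of these data known. Values in every library are given for called genes with a group mean of at least 5 CPM and for HOXB13, group means for those of at least 1 CPM, and from each other list up to 3 called genes with the smallest p per genotype comparison. Some genes that this rule names are not reported here by name, although counts, medians and sums include them. Alternatives were DESeq2 1.42.0, other size factors and filters, library totals, a replicate block, all 16 libraries, leaving out each library, centring by chromosome and, for lengths, the longest transcript. Centring on 51 neighbouring genes was added after seeing the data.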

Additional observations from a re-analysis of the deposited data

Results flagged for a closer look

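The DDX4-null difference was tested against the setting, and for these genes it differed between tumors and cells (edgeR, 4-group model, adjusted p under 0.05). On the log2 scale, tumors minus cells, the difference was 1.40 for HOXA3, 2.27 for HOXA9, 2.17 for HOXA10, 0.944 for HOXA11 and 2.05 for HOXA13. It was -2.10 for HOXB3, -1.18 for HOXB5, -1.57 for HOXB6, -4.61 for HOXB8 and -3.35 for HOXB9, and -0.837 for HOXC6, -3.10 for HOXC10 and -0.971 for HOXC13. The values of HOXA11 after centring by chromosome and of HOXB5 after centring on neighbours were not called.

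Some libraries lay far from the other 3 of their group by Dixon's test, which flags about 1 group in 20 by chance. It was applied to 15 genes in each of 4 groups, so a few flags arise by chance alone. HOXA9 was lowest in DDX4-null cell library 1 at 5.64 CPM and highest in control cell library 4 at 30.5 CPM. HOXA11 was highest in control cell library 3 at 18.2 CPM and HOXB3 in control cell library 2 at 6.17 CPM. HOXA13 was highest in DDX4-null tumor library 1 at 39.0 CPM, and the same library had 11010 CPM of fibroblast markers, while the other DDX4-null tumors had 1679 to 1931 CPM. The part of these markers in the HOXA13 value was not tested.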

How the results depend on the processing

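Most HOX results kept their direction and their side of the threshold. In tumors, edgeR called no HOX gene between DDX4-null and control, DESeq2 called 1 higher (HOXB13), and the model of all 16 libraries called 1 higher (HOXB13) and 2 lower (HOXA6 and HOXA11). Leaving out each library in turn gave 13 to 14 HOX genes higher and 10 to 11 lower between DDX4-null and control cells, and each time 0 higher and 0 lower in tumors. It gave 8 to 9 higher and 8 to 10 lower between control tumors and control cells, 7 to 8 higher and 8 to 9 lower between DDX4-null tumors and DDX4-null cells, and 6 to 9 higher and 11 to 12 lower for the difference between settings. Centring on neighbours reversed 3 values that were near 0 and not called without it, giving -0.48 for HOXB13 between DDX4-null and control cells, 0.46 for HOXA13 between control tumors and control cells, and 0.41 for HOXB3 between DDX4-null tumors and DDX4-null cells. With library totals in place of TMM the HOXA sum was 96.7 CPM in control cells, and the HOXB sum 591 CPM in control tumors and 216 CPM in control cells. With the longest transcript as length, HOXB13 held 74.5% of summed HOX RPKM in DDX4-null tumors, 69.6% in control tumors and 39.8% in control cells.

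With library totals the median of all genes was 0.19 between control tumors and control cells, beside 0.02 with TMM. There 5569 genes were then higher and 2870 lower, beside 4354 and 3986 with TMM. For the difference between settings the median was -0.16, with 2721 higher and 4404 lower beside 3532 and 3649, and in tumors 97 were higher and 168 lower beside 127 and 143. Replicate numbers did not pair the libraries, since not every same-numbered pair deviated together and not every library correlated best with its own number. With the replicate number as a block, 13 HOX genes were higher and 10 lower between DDX4-null and control cells, 0 and 0 in tumors, 8 and 8 between control tumors and control cells, 7 and 9 between DDX4-null tumors and DDX4-null cells, and 7 and 11 for the difference between settings. In tumors 258 genes of all were higher and 167 lower with the block, 483 and 403 with DESeq2 and 470 and 338 in the model of all 16 libraries. Genes below 1 CPM rest on few counts and changes in them are hard to detect at this depth.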
